A study of Mus musculus with 12 samples.

Results

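The genes described here encode chains of the fibrillar collagens of types I, III and V and an enzyme that crosslinks them. They were measured in mouse mesenchymal stem cells grown as 3D spheroids or as attached 2D cells. The set holds 6 of the 56748 gene IDs in the deposited tables, namely Col1a1 (ENSMUSG00000001506), Col1a2 (ENSMUSG00000029661), Col3a1 (ENSMUSG00000026043), Col5a1 (ENSMUSG00000026837), Col5a2 (ENSMUSG00000026042) and Lox (ENSMUSG00000024529). It was defined by a fixed list of gene IDs, chosen with earlier results of these data known. All 6 genes passed the filter on low counts that left 14338 genes to be tested. The tables give IDs only, so each symbol is the one that the definition of the set pairs with the ID.

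The cells were mesenchymal stem cells from mouse adipose tissue, and all of them were kept in DMEM with fetal bovine serum and antibiotics. There were 4 groups of 3 libraries, which were 3D spheroids at 24 h, 2D single cells at 24 h, 3D spheroids at 0 h and 2D single cells at 0 h, 12 libraries in all. The labels give neither mouse strain, sex nor age, nor do they say how long spheroids had formed by 0 h or where replicates came from. The p-values therefore reflect no more than the scatter of these libraries, possibly a technical one. Library totals ran from 10182590 to 17109609 expected counts, and 3D 24h replicate 1 had the most. Replicates of a group differed by more than sampling noise in all 12 pairs, with a chi-square per degree of freedom of at least 4.56. Markers of stromal cells and of other cells of fat tissue are not analysed here, because the gene IDs other than these 6 carry no symbols.

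Fibrillar collagens are the rope-like proteins that give connective tissue its tensile strength. Each molecule is a triple helix of chains. Type I is usually built from a pair of chains encoded by Col1a1 and a single chain encoded by Col1a2, and type III from identical chains encoded by Col3a1. Type V, with chains from Col5a1 and Col5a2, is a minor component that sits inside type I fibrils and is needed to start them. Lox encodes lysyl oxidase, a secreted copper enzyme that oxidises lysines of collagen and elastin so that neighbouring molecules become joined by covalent crosslinks. Stromal cells of fat make these proteins as part of the matrix around adipocytes and vessels.

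Promoter sequences are shown for the 3 genes with an entry used here, to set Col3a1, the gene that was higher in spheroids at both times, beside a type I and a type V chain. They are from RefSeq on GRCm38.p6, a different build from the one used for the counts, and hold the bases on the plus strand just before the first annotated start of each gene. Capitals mark matches, on either strand, to 3 short promoter motifs, TATAA of the core promoter and the CCAAT box and GC box (GGGCGG) of the proximal promoter. Matches were marked anywhere in the window, whatever their distance to the start, so a marked TATAA need not be a core promoter element.
Col1a2 (chr6:4505368-4505617, plus strand): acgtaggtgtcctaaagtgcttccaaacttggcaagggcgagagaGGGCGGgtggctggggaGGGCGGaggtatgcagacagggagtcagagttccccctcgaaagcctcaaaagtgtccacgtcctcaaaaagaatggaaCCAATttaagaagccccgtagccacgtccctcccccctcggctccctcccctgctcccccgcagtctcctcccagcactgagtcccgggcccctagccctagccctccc
Col3a1 (chr1:45311288-45311537, plus strand): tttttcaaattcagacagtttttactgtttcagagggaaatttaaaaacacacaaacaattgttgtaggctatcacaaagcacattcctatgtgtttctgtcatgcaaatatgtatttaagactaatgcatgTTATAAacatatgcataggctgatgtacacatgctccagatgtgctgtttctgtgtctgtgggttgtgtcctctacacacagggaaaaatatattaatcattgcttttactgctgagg
Col5a1 (chr2:27886175-27886380, plus strand): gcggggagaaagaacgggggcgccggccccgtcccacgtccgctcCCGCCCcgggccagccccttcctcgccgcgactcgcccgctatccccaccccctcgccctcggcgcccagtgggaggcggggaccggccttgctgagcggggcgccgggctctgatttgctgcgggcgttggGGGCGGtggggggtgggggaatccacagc
The Col3a1 window was poor in G and C, at 35.2% of its 250 bases, and 5% of the 32851 promoter windows of that length had less. The Col1a2 window had 62% and the 206-base Col5a1 window 77.7%, above 76.7% and 97.7% of windows of their lengths. Windows set beside that of Col5a1 were the first 206 bases of each entry, which can end farther from the gene's start. The Col1a2 window held 1 match to CCAAT and 2 to GGGCGG, motifs found in 33.8% and 32.7% of windows of its length. The Col5a1 window held 2 matches to GGGCGG, which 25.8% of windows of its length hold. The Col3a1 window held 2 overlapping matches to TATAA, 1 on each strand, and 22.8% of windows of its length hold that motif. These are descriptions of the letters in these windows and do not show that a factor binds there.

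Levels are given as TPM, a length-scaled share of all transcripts in a library, obtained from the deposited log2(TPM + 1) values, and fold changes come from edgeR's quasi-likelihood test on the expected counts. Since TPM is scaled by transcript length, levels of different genes can be set side by side on it. CPM stands for counts per library size after TMM scaling, the scale of the edgeR fold changes. Whether groups overlap is stated on TPM unless CPM is named, and the scales can disagree. Genes counted as called where p, after Benjamini-Hochberg adjustment over all 14338 genes, lay under 0.05. In whole-culture RNA, fewer cells of a type and less RNA per cell cannot be told apart.

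After 24 h, spheroids differed from attached cells in the transcripts of type III and type V collagen and of Lox. Col3a1 was higher in 3D, while Col5a1, Col5a2 and Lox were lower, and the type I genes were not called. That is 4 of 6 genes called, 1 higher and 3 lower, against 42.5% of all genes tested in this comparison, 19.6% higher and 22.8% lower. At 0 h, 2 of 6 were called, 1 higher (Col3a1) and 1 lower (Col5a1), against 45.8% of all genes, 23.1% higher and 22.7% lower. On the log2 scale, the 6 genes had a median fold change of -0.56 at 24 h and 0.20 at 0 h, where that of all genes was -0.00175 and 0.0229.

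Col3a1 was the 1 gene of the 6 that was called higher in spheroids at both times. It stood at 6579, 5514 and 5746 TPM in the 3D 24h libraries, against 2287, 2923 and 2861 TPM in the 2D 24h libraries. Its levels at 0 h were 1880, 1891 and 1961 TPM in 3D, against 946, 916 and 1154 TPM in 2D. Every 3D library lay above every 2D library of its time. The log2 fold change was 0.96 ± 0.12 at 24 h (SE, n = 3 per group, adjusted p = 4.73e-06 by edgeR) and 0.84 ± 0.12 at 0 h (edgeR adjusted p = 2.10e-05). In 3D at 24 h it was among the 8 most abundant gene IDs of every library, whereas in 2D at 24 h its place ran from 25 to 45. Its place at 0 h was 53 to 59 in 3D, against 106 to 160 in 2D, among the 56748 gene IDs.

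The level of Col3a1 also rose with time in both cultures. The log2 change at 24 h against 0 h was 1.29 ± 0.12 in 3D (SE; edgeR adjusted p = 1.58e-07) and 1.17 ± 0.12 in 2D (edgeR adjusted p = 2.33e-06). The libraries of 24 h lay above those of 0 h in each culture, without overlap. The difference between the cultures was not called as having changed with time, with a log2 difference of 0.12 and a 95% interval of -0.23 to 0.47 (edgeR adjusted p = 0.62). Its sign turned without 2D 24h replicate 1, where the log2 difference was -0.019 (edgeR adjusted p = 0.93).

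Lox had the largest fold change of the 6 genes between spheroids and attached cells at 24 h. It stood at 399, 252 and 263 TPM in the 3D 24h libraries, against 962, 1556 and 1397 TPM in the 2D 24h libraries. All 3 spheroid libraries lay below all 3 attached ones. The log2 fold change of -2.10 ± 0.15 (SE, n = 3 per group; edgeR adjusted p = 5.17e-09) made Lox 4.30-fold lower in 3D, and 3.67% of all genes had a lower fold change. At 0 h Lox stood at 922, 883 and 1112 TPM in 3D, against 693, 875 and 785 TPM in 2D. In TPM the 3D libraries lay above the 2D ones by a narrow margin. In CPM the groups overlapped, at 2683 to 3285 in 3D, against 2413 to 2927 in 2D. The log2 fold change there was 0.17, with a 95% interval of -0.14 to 0.47, and it was not called (edgeR adjusted p = 0.37).

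The changes of Lox over 24 h ran in opposite directions in the 2 cultures. At 24 h against 0 h it fell by 1.76 ± 0.15 on the log2 scale in 3D (SE; edgeR adjusted p = 4.57e-08), and it rose by 0.51 ± 0.14 in 2D (edgeR adjusted p = 0.013). Every 3D library of 24 h lay below every 3D library of 0 h, and every 2D library of 24 h above every 2D library of 0 h. The fall in 3D was called under each of 22 alternative settings, with an adjusted p of at most 0.00019. The rise in 2D was called under 18 of 22, and was lost without 2D 0h replicate 1 (edgeR adjusted p = 0.057), 2D 24h replicate 2 (edgeR adjusted p = 0.087) or 2D 24h replicate 3 (edgeR adjusted p = 0.052), and in limma without a filter (limma adjusted p = 0.053). The value at 24 h minus that at 0 h, for 3D against 2D on the log2 scale, was -2.27 ± 0.21 (SE; edgeR adjusted p = 1.92e-07).

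**Figure D1:**
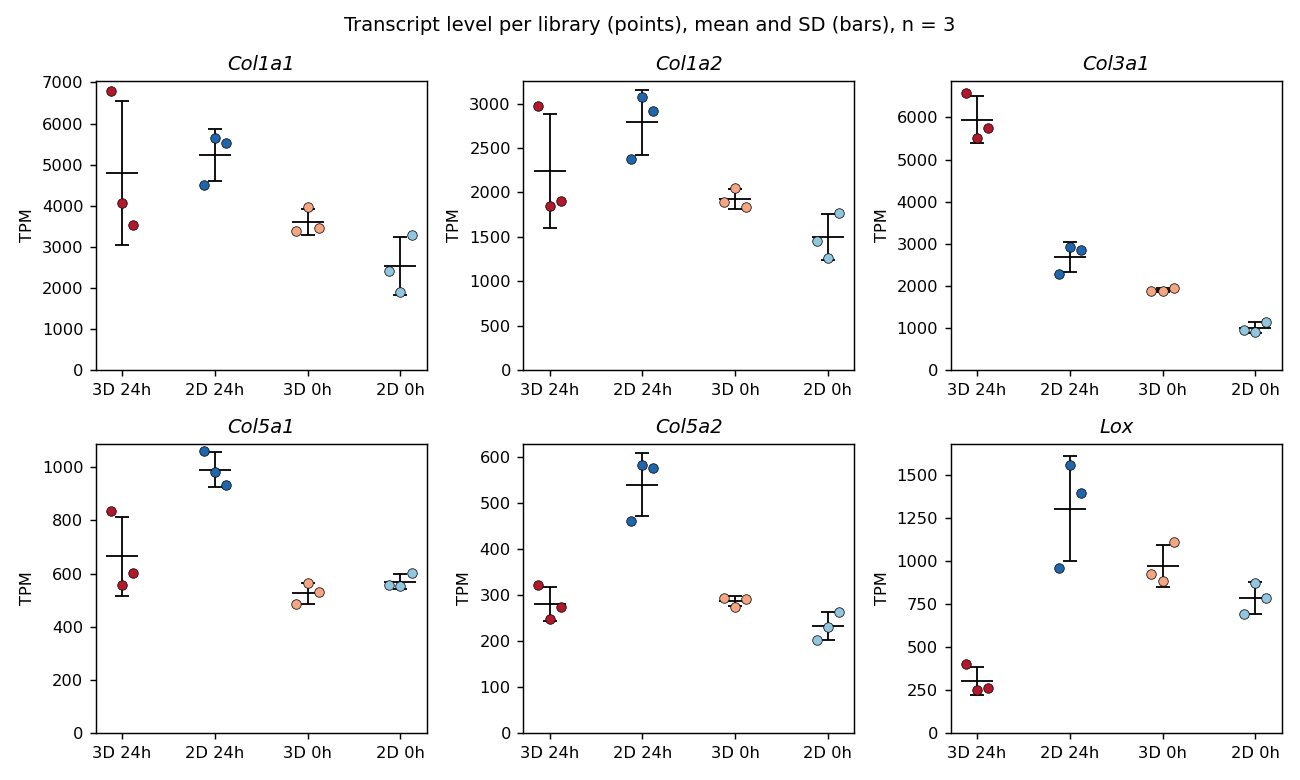
TPM of each gene (vertical axis, linear from 0) in the 4 groups, with 1 point per library and bars for the mean and SD (n = 3). The Col3a1 panel has the 3D 24h libraries between 5514 and 6579 TPM, and the Lox panel has the same libraries between 252 and 399 TPM, below every other group.

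Transcripts of the type V chains were lower in spheroids than in attached cells after 24 h. Col5a2 stood at 320, 248 and 273 TPM in the 3D 24h libraries, against 460, 581 and 576 TPM in the 2D 24h libraries, with no overlap. Its log2 fold change was -0.94 ± 0.09 (SE, n = 3 per group; edgeR adjusted p = 2.43e-07). In the 0 h libraries Col5a2 stood at 294, 273 and 291 TPM in 3D, against 201, 231 and 263 TPM in 2D, and the groups did not overlap. In CPM the Col5a2 groups overlapped narrowly, with a lowest 3D value of 1156.7 and a highest 2D value of 1158.75. Its log2 fold change at 0 h was 0.16 and was not called (edgeR adjusted p = 0.17), but it was called with upper-quartile scaling, at 0.27 (edgeR adjusted p = 0.023), and with library totals, at 0.26 (edgeR adjusted p = 0.035). Its level rose by 1.00 ± 0.09 on the log2 scale over 24 h in 2D (SE; edgeR adjusted p = 7.03e-07), while the change in 3D was -0.10 with a 95% interval of -0.29 to 0.09 (edgeR adjusted p = 0.39). On the log2 scale, the 3D against 2D difference of 24 h minus that of 0 h was -1.10 ± 0.13 (SE; edgeR adjusted p = 3.54e-06), called under all 21 alternative settings.

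Col5a1 stood at 835, 558 and 601 TPM in the 3D 24h libraries, against 1060, 982 and 933 TPM in the 2D 24h libraries. The groups did not overlap, and 3D 24h replicate 1 lay closest to the attached cells. The log2 fold change was -0.79 ± 0.11 (SE, n = 3 per group; edgeR adjusted p = 1.48e-05). At 0 h Col5a1 stood at 485, 563 and 529 TPM in 3D, against 556, 552 and 603 TPM in 2D, and these ranges overlapped. In CPM the groups did not overlap, at 1541, 1750 and 1580 in 3D, against 2142, 1915 and 2070 in 2D. The lower level at 0 h was called in edgeR at -0.33 ± 0.11 on the log2 scale (SE, adjusted p = 0.019), and this call was lost without 2D 0h replicate 1 (edgeR adjusted p = 0.063), 3D 0h replicate 1 (edgeR adjusted p = 0.095) or 3D 0h replicate 3 (edgeR adjusted p = 0.064). It was also lost with upper-quartile scaling (edgeR adjusted p = 0.11), with library totals (edgeR adjusted p = 0.077) and in limma on log2 TPM, at -0.12 (limma adjusted p = 0.48).

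The level of Col5a1 rose by 0.63 ± 0.11 on the log2 scale over 24 h in 2D (SE; edgeR adjusted p = 3.54e-04). In 3D the change was 0.18 with a 95% interval of -0.05 to 0.40, which was not called (edgeR adjusted p = 0.19) except with library totals, at 0.26 (edgeR adjusted p = 0.045). For Col5a1 the corresponding change of the 3D against 2D difference was -0.46 ± 0.15 (SE; edgeR adjusted p = 0.025). That call was lost without 2D 24h replicate 1 (edgeR adjusted p = 0.064), 3D 0h replicate 2 (edgeR adjusted p = 0.086), 3D 24h replicate 2 (edgeR adjusted p = 0.096) or 3D 24h replicate 3 (edgeR adjusted p = 0.078), and in limma without a filter (limma adjusted p = 0.12).

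In the RefSeq table Col3a1 and Col5a2 are next to each other on chromosome 1, with no gene listed between them. At 24 h the log2 fold change of 3D against 2D was 0.96 for Col3a1 and -0.94 for Col5a2.

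Col1a1, for the alpha 1 chain of type I, was the most abundant of the set in attached cells, and neither type I gene was called between spheroids and attached cells at either time. Col1a1 stood at 6787, 4066 and 3538 TPM in the 3D 24h libraries, against 4511, 5653 and 5537 TPM in the 2D 24h libraries. The replicates of 3D 24h differed from each other more than in any other group, with a coefficient of variation of 36.4%, and replicate 1, the library with the highest total, held the top value. The log2 fold change was -0.13 with a 95% interval of -0.50 to 0.24 (edgeR adjusted p = 0.60), and it turned to 0.064 without 3D 24h replicate 3 (edgeR adjusted p = 0.82). At 0 h Col1a1 stood at 3394, 3960 and 3466 TPM in 3D, against 2411, 1894 and 3283 TPM in 2D. No 3D library lay below a 2D library there in TPM. In CPM, 3D 0h replicates 1 and 3 (12754 and 12614) lay just below 2D 0h replicate 3 (12758). The log2 fold change at 0 h was 0.38 with a 95% interval of 0.01 to 0.75 (edgeR adjusted p = 0.088). It passed the threshold without 2D 0h replicate 3, at 0.56 (edgeR adjusted p = 0.019), and without 3D 24h replicate 1, at 0.37 (edgeR adjusted p = 0.033). It also passed with upper-quartile scaling (edgeR adjusted p = 0.029), with library totals (edgeR adjusted p = 0.034) and in the fit to the 2 groups compared (edgeR adjusted p = 0.047). Without a filter on low counts it passed at 0.41 (edgeR adjusted p = 1.67e-05), a much smaller p at nearly the same fold change. In all, 6 of 22 alternative settings called it.

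Col1a2 stood at 2975, 1844 and 1905 TPM in the 3D 24h libraries, against 2377, 3076 and 2918 TPM in the 2D 24h libraries. Replicate 1 of 3D 24h overlapped the attached cells and the other two did not. Its log2 fold change was -0.33 with a 95% interval of -0.61 to -0.05 and missed the threshold (edgeR adjusted p = 0.056). It passed without 3D 24h replicate 1, at -0.51 (edgeR adjusted p = 0.0015), without 2D 24h replicate 1, at -0.38 (edgeR adjusted p = 0.045), and without 2D 0h replicate 2 or 3 (edgeR adjusted p = 0.035 and 0.045). Without a filter on low counts it passed at -0.29 (edgeR adjusted p = 0.0066). At 0 h Col1a2 stood at 1895, 2046 and 1834 TPM in 3D, against 1456, 1257 and 1769 TPM in 2D. The groups did not overlap in TPM. In CPM they did, at 6323, 6841 and 5996 in 3D, against 5599, 4615 and 6144 in 2D. The log2 fold change of 0.23 was not called (edgeR adjusted p = 0.17). It was called with upper-quartile scaling, at 0.34 (edgeR adjusted p = 0.042), and without a filter on low counts, at 0.26 (edgeR adjusted p = 0.021).

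**Figure D2:**
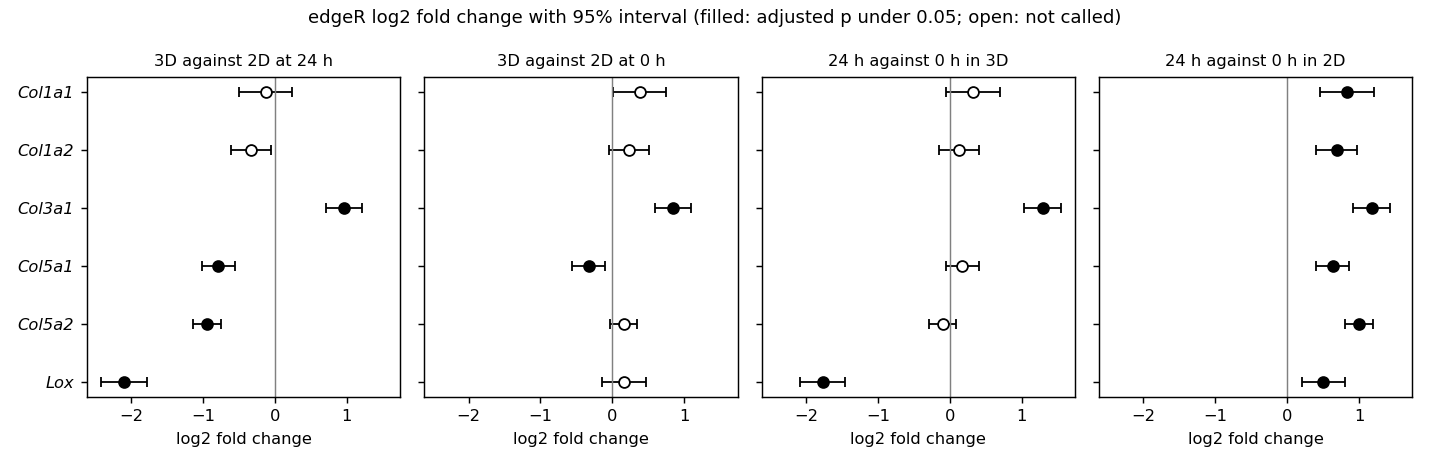
Log2 fold change (horizontal axis) of each gene in the 4 comparisons, with the 95% interval as a bar, a filled point where the edgeR adjusted p was under 0.05 and an open point otherwise. All 6 points are filled and to the right of 0 for 24 h against 0 h in 2D, whereas in 3D the filled points are Col3a1, at 1.29, and Lox, at -1.76.

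Over 24 h, all 6 genes rose in attached cells, whereas in spheroids 1 rose, 1 fell and 4 were not called. Of all genes, 48.5% were called in 3D, 23.8% higher and 24.7% lower, and 34.4% in 2D, 17.4% higher and 17.0% lower. The median log2 change of the 6 genes was 0.15 in 3D and 0.76 in 2D, where that of all genes was -0.00426 and 0.0246. The changes in 2D ran from 0.51 for Lox to 1.17 for Col3a1 on the log2 scale. For the type I genes, the rise in 2D was 0.83 ± 0.18 for Col1a1 (SE; edgeR adjusted p = 0.0019) and 0.69 ± 0.13 for Col1a2 (edgeR adjusted p = 9.38e-04). In 3D the change was 0.32 for Col1a1, with a 95% interval of -0.05 to 0.70 (edgeR adjusted p = 0.14). It was called without 3D 24h replicate 3, at 0.51 (edgeR adjusted p = 0.031), and without a filter on low counts, at 0.33 (edgeR adjusted p = 6.92e-04). For Col1a2 in 3D the change was 0.13, with a 95% interval of -0.15 to 0.41 (edgeR adjusted p = 0.44), and it was -0.057 without 3D 24h replicate 1 (edgeR adjusted p = 0.71).

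The 3D against 2D difference was lower at 24 h than at 0 h for 4 of the 6 genes, Col1a2, Col5a1, Col5a2 and Lox, and higher for none, against 39.1% of all genes called, 20.5% lower and 18.7% higher. For Col1a2 the change of that difference was -0.56 ± 0.19 on the log2 scale (SE; edgeR adjusted p = 0.026), a call held under 13 of 21 alternative settings. The libraries whose omission ended that call were 2D 0h replicate 2, 2D 24h replicates 2 and 3, 3D 0h replicates 1 and 2, and 3D 24h replicates 2 and 3, with edgeR adjusted p between 0.055 and 0.11, and limma without a filter also ended it (limma adjusted p = 0.10). For Col1a1 the log2 difference was -0.51 with a 95% interval of -1.03 to 0.02 (edgeR adjusted p = 0.12). It was called without 2D 0h replicate 3 (edgeR adjusted p = 0.031), without 3D 24h replicate 1, at -0.75 (edgeR adjusted p = 0.0072), and without a filter on low counts, at -0.50 (edgeR adjusted p = 2.87e-04).

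Type III took a larger share of the collagen transcripts in spheroids after 24 h than in any other group. The summed level of the 5 collagen genes was 13929.6 ± 3090.5 TPM in 3D 24h and 12246.0 ± 1356.6 TPM in 2D 24h (SD, n = 3 each), and the 2 groups overlapped. The sum at 0 h was 8254.0 ± 420.6 TPM in 3D and 5830.4 ± 1133.3 TPM in 2D. Of that sum, Col3a1 made up 37.6%, 45.1% and 47.6% in the 3D 24h libraries, against 21.4%, 22.1% and 22.3% in the 2D 24h libraries. Its share at 0 h was 23.7%, 21.7% and 24.3% in 3D, against 17.0%, 18.9% and 16.3% in 2D. Each of the other collagen genes had a lower mean share in 3D 24h than in 2D 24h. The share of Col1a1 was 33.8% ± 4.76 in 3D 24h and 42.7% ± 0.501 in 2D 24h, and that of Col1a2 was 15.96% ± 0.974 in 3D 24h and 22.8% ± 0.527 in 2D 24h (SD, n = 3 each).

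**Figure D3:**
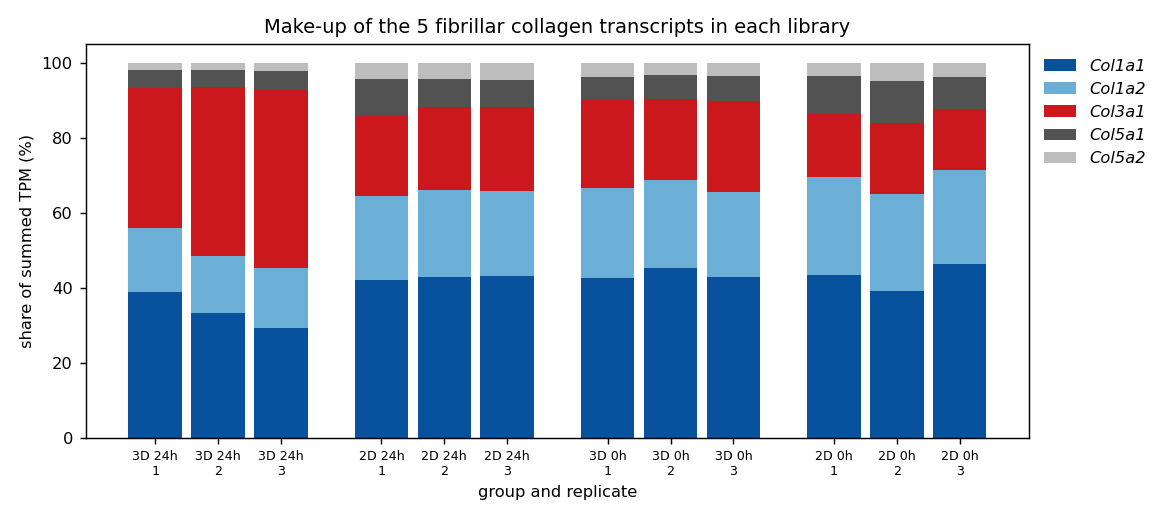
Share of each of the 5 collagen genes in their summed TPM (vertical axis, percent), with 1 bar per library. The Col3a1 segment takes 37.6% to 47.6% of the 3D 24h bars and 16.3% to 24.3% of the 3D 0h and both 2D groups' bars.

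Ratios between genes within a library do not depend on how libraries are scaled to each other, and the groups' log2 ratios were set against each other in two-sided exact permutation tests. With 3 libraries against 3 such a test cannot give p below 0.1, and adjusted p-values are over 16 ratio tests. The Col3a1 to Col1a1 ratio was 0.969, 1.36 and 1.62 in the 3D 24h libraries, against 0.507, 0.517 and 0.517 in the 2D 24h libraries. Col3a1 transcripts outnumbered those of Col1a1 in replicates 2 and 3 of the spheroids and in no attached library. The ratio was 2.51-fold higher in 3D at 24 h (exact p = 0.1, adjusted p = 0.27), the smallest p this test can give. That is a log2 difference of 1.33 in TPM. On expected counts the gap was smaller, with edgeR log2 fold changes of 0.96 for Col3a1 and -0.13 for Col1a1. In 3D 0h libraries the Col3a1 to Col1a1 ratio was 0.554, 0.478 and 0.566, against 0.392, 0.484 and 0.352 in 2D 0h libraries, which overlapped (exact p = 0.2, adjusted p = 0.32). With expected counts in place of TPM, the log2 difference at 0 h was 0.45 (exact p = 0.1), against 0.39 with TPM.

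The Lox to Col1a1 ratio was 0.0587, 0.0621 and 0.0744 in the 3D 24h libraries, against 0.213, 0.275 and 0.252 in the 2D 24h libraries. It was 3.79-fold lower in 3D at 24 h, without overlap (exact p = 0.1, adjusted p = 0.27). In 3D 0h libraries it was 0.272, 0.223 and 0.321, against 0.287, 0.462 and 0.239 in 2D 0h libraries, and the groups overlapped (exact p = 0.6, adjusted p = 0.64). The Col1a1 to Col1a2 ratio, which sets both chains of type I against each other, averaged 2.11 ± 0.227 in 3D 24h and 1.88 ± 0.0347 in 2D 24h. The 3D 0h libraries averaged 1.87 ± 0.0737 and the 2D 0h libraries 1.67 ± 0.176 (SD, n = 3 each), and the ranges overlapped at both times. The Col5a1 to Col1a1 ratio averaged 0.143 ± 0.0240 in 3D 24h and 0.192 ± 0.0370 in 2D 24h, with overlap (exact p = 0.2, adjusted p = 0.32). With expected counts in place of TPM, its log2 difference at 24 h was -0.62 (exact p = 0.1), against -0.42 with TPM. The 0 h means were 0.146 ± 0.00577 in 3D and 0.235 ± 0.0540 in 2D, without overlap (exact p = 0.1, adjusted p = 0.27).

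**Figure D4:**
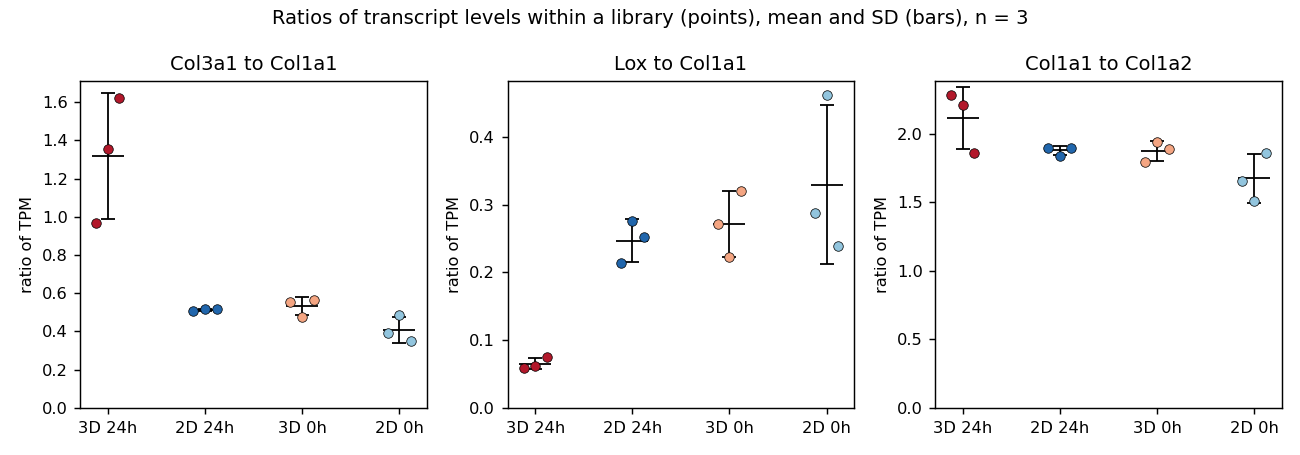
Ratio of TPM values within a library (vertical axis, linear from 0) for 3 gene pairs in the 4 groups, with 1 point per library and bars for the mean and SD (n = 3). The Col3a1 to Col1a1 ratio lies between 0.969 and 1.62 in 3D 24h and the Lox to Col1a1 ratio between 0.0587 and 0.0744, while the Col1a1 to Col1a2 ratio overlaps between 3D and 2D at both times.

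The order of the 6 levels differed between spheroids after 24 h and the other groups. In 3D 24h the order was Col3a1 at 5947 ± 560 TPM, Col1a1 at 4797 ± 1744 TPM, Col1a2 at 2241 ± 636 TPM and Col5a1 at 665 ± 149 TPM. Col3a1 and Col1a1 overlapped there, and so did Lox, at 305 ± 81.5 TPM, and Col5a2, at 280 ± 36.9 TPM. In 2D 24h, Col1a1 averaged 5234 ± 629 TPM, Col1a2 2790 ± 367 TPM and Col3a1 2691 ± 351 TPM (SD, n = 3). The ranges of Col1a2 and Col3a1 overlapped across libraries, but Col1a2 lay above Col3a1 within each 2D 24h library. Lox followed at 1305 ± 308 TPM and Col5a1 at 992 ± 64.1 TPM, which overlapped, and Col5a2 came last at 539 ± 68.4 TPM. In both groups of 0 h the order was Col1a1, then Col1a2 and Col3a1, then Lox, Col5a1 and Col5a2. Col1a2 and Col3a1 averaged 1925 ± 109 and 1911 ± 43.6 TPM in 3D 0h, against 1494 ± 258 and 1005 ± 130 TPM in 2D 0h.

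The genes of one collagen type followed each other more closely across libraries than they followed the other members, but for Col5a2 the margin over Col1a2 was narrow. Over the 12 libraries, Pearson's r of log2 CPM (counts per library size after TMM scaling) was 0.947 between Col1a1 and Col1a2 and 0.829 between Col5a1 and Col5a2. Among the 9161 other genes that averaged 10 CPM or more, Col1a2 held place 2 in likeness to Col1a1, and Col5a2 held place 120 in likeness to Col5a1. Col1a2 and Col5a2, of different types, had r = 0.793, and Col5a2 held place 100 in likeness to Col1a2. Col3a1 had r = 0.699 with Col1a1, 0.147 with Col5a2 and -0.658 with Lox. Lox had r = 0.547 with Col5a2 and -0.0748 with Col1a1. The points are libraries of 4 groups that share depth and scaling within a library, so these values describe how the groups differ and carry no test.

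**Figure D5:**
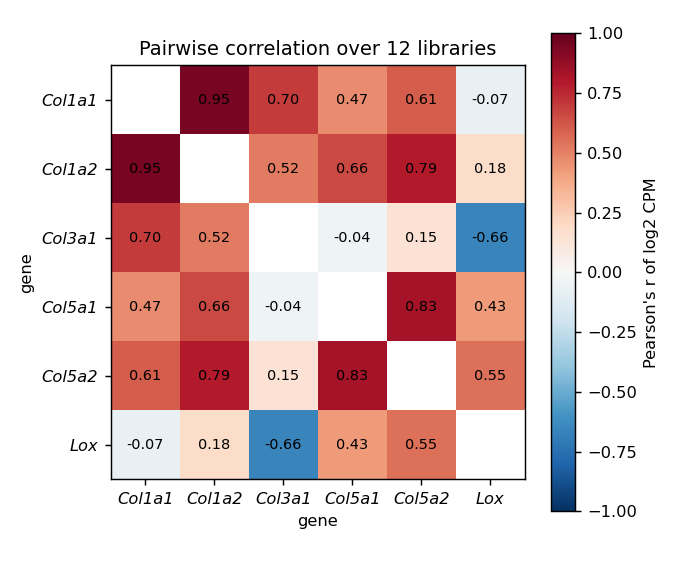
Pearson's r of log2 CPM over the 12 libraries for each pair of genes, shown as colour and as a number. The pairs of one collagen type have r = 0.95 (Col1a1 and Col1a2) and 0.83 (Col5a1 and Col5a2), and the lowest value, -0.66, is between Col3a1 and Lox.

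The genes most like Lox and Col3a1 in the table were examined in the same way. The first place for Lox was held by ENSMUSG00000036777, with r = 0.992, and that for Col3a1 by ENSMUSG00000032440, with r = 0.985. Because other IDs carry no symbols here, they were set beside the mouse cell cycle marker genes supplied by ID with the scran package, a choice made after the values had been seen. Of the 100 genes nearest to Lox, 15 belonged to a list of 93 G2/M genes, for cells about to divide or dividing, and 0.873% of the 9161 genes were on that list. Its genes stand first in at least 20 of the package's G2/M marker pairs and second in at most 10% of the G2/M pairs that hold them. The 80 list genes with enough counts had a median r of 0.903 with Lox, where the median over all 9161 genes was 0.0143. Their median r with Col3a1 was -0.655, and with Col1a1, Col1a2, Col5a1 and Col5a2 it lay between -0.171 and 0.361. For the S and G1 lists, the median r with Lox was 0.183 and 0.0718. The part of cell division in the Lox values was not tested, and likeness to 100 neighbours does not show shared control.

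Counts and TPM did not move identically for Col3a1, because the effective length that links the 2 tables differed between libraries. Relative to the median gene of a library, the effective length of Col3a1 was 1.520, 1.624 and 1.498 in 3D 24h, against 1.527, 1.831 and 1.818 in 2D 24h. It was 1.93, 1.89 and 1.79 in 3D 0h, against 1.88, 1.66 and 1.89 in 2D 0h. Its highest value was 1.29 times its lowest, and 35.9% of 7934 well-counted genes had a wider range. For Col1a1, Col1a2, Col5a2 and Lox the highest was at most 1.05 times the lowest, and for Col5a1 it was 1.21 times. In limma on log2 TPM, Col3a1 in 3D differed from 2D by 1.15 at 24 h and 0.93 at 0 h, and its change over 24 h was 1.63 in 3D and 1.419 in 2D, each called. All expected counts of the 6 genes were whole numbers in all 12 libraries.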

How the data were processed

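RNA of 12 libraries, 3 in each of 4 groups, was measured by sequencing. Per the labels' protocols, a SMART-seq low-input kit gave the RNA and a stranded TruSeq kit the libraries. FastQC 0.11.9, STAR, RSEM and GRCm39 appear in the submitters' processing notes, while annotation, settings and other versions were not given in the sources used here. Deposited were unnormalized expected counts per gene and, per the file's name, log2 values of TPM + 1 that the authors computed. Column names give D0 and D1, read as 0 h and 24 h.

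After rounding, the expected counts went into edgeR 4.0.16 under R 4.3.3: expression filter with a minimum count of 10, TMM scaling, a quasi-likelihood fit to all 12 libraries with 1 term per group (8 residual degrees of freedom), and Benjamini-Hochberg adjustment over all genes tested. SEs were taken from the fold change and its F statistic. TPM was recovered as 2 to the power of the deposited log2 value, minus 1. Alternatives used DESeq2 1.42.0, limma 3.58.1 and other scalings, filters and library sets, and marker pairs came from scran 1.30.0. The fit and exact tests were tested on simulated data with known changes.

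The members and lists were chosen with earlier results of these data known. Named were the 6 members and the nearest genes by correlation. None of the gene IDs matched the RefSeq table, so the planned lists of related genes and cell type markers were not used here; the 6 member symbols were matched to it by name. Same-numbered libraries of different groups did not deviate together (r from -0.234 to 0.0518 over 18 pairs), so replicate numbers were not treated as pairs.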

Additional observations from a re-analysis of the deposited data

Results flagged for a closer look

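The difference between spheroids and attached cells changed between the 2 times for 4 of the 6 genes, by the edgeR test of that change. All 4 were lower, against 39.1% of all genes called, 20.5% lower and 18.7% higher. Taken at 24 h minus 0 h, the 3D against 2D value on the log2 scale was -2.27 for Lox, -1.10 for Col5a2, -0.56 for Col1a2 and -0.46 for Col5a1. The values for Lox and Col5a2 were called under all 21 alternative settings, that of Col1a2 under 13 and that of Col5a1 under 16.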

How the results depend on the processing

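Alternatives covered scaling, the filter, the fit to 2 groups, log2 TPM values, the replicate block and the omission of each library. The number of the 6 genes called stayed within 1.5 times its reported value in 43 of 49 recomputations with all 12 libraries or both groups compared. That rule looks at the number only, not at which genes were called. With library totals, 3 genes were called at 0 h, all higher, against 1 higher and 1 lower as reported. For 3D against 2D at 0 h it was 2, and became 4 with upper-quartile scaling (all higher), 4 without a filter and 1 with limma on log2(TPM + 1), on log2(TPM + 0.1) or on log2(TPM + 1) without a filter. For the change of that difference it was 4, and became 2 with limma without a filter. Leaving out 1 library gave 1 to 3 called at 0 h and 2 to 5 for the change of the difference, and the cause was not tested. Signs turned on leaving out 1 library for 5 values: Col3a1 in the change of the difference (-0.019 without 2D 24h replicate 1, range -0.019 to 0.24), Col1a2 at 24 h against 0 h in 3D (-0.057 without 3D 24h replicate 1, range -0.057 to 0.24) and Col1a1 in 3D against 2D at 24 h (0.064 without 3D 24h replicate 3, range -0.38 to 0.064). The others were the log2 ratio of Lox to Col1a1 in 3D against 2D at 0 h (0.036 without 2D 0h replicate 2, range -0.44 to 0.036) and of Col5a1 to Col1a1 at 24 h against 0 h in 3D (0.066 without 3D 24h replicate 1, range -0.17 to 0.066). None of these 5 was called. With the replicate block, members called stayed at 4 for 3D against 2D at 24 h, 2 at 0 h, 2 for 24 h against 0 h in 3D, 6 in 2D and 4 for the change of the difference, and the block changed no call of the 6 genes. Over all genes, calls split into 3235 higher and 2953 lower at 24 h with upper-quartile scaling and 3648 and 2708 with library totals, against 2815 and 3276. At 0 h they split into 4025 and 2610 with upper-quartile scaling and 3641 and 2229 with limma on log2(TPM + 1), against 3309 and 3255. For 24 h against 0 h in 2D the split was 2891 and 1257 with limma on log2(TPM + 1), against 2489 and 2441, and 3111 genes were called by limma without a filter, against 4930. The median log2 fold change of all genes at 0 h was 0.139 with upper-quartile scaling, 0.121 with library totals and 0.13 with limma on log2(TPM + 1), against 0.0229, and the 0 h values of the 6 genes shift with it. It was 0.123 at 24 h with library totals and 0.169 for 24 h against 0 h in 2D with limma. Each of the 6 genes had at least 9262 counts in every library.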
